A study of Mus musculus with 7 samples.

Results

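The 3 vesicular glutamate transporter genes, Slc17a7 (VGLUT1), Slc17a6 (VGLUT2) and Slc17a8 (VGLUT3), were followed in RNA on the ribosomes of mouse kisspeptin cells taken from the AVPV, the anteroventral periventricular nucleus of the preoptic area. They were chosen by symbol, each symbol matched 1 Ensembl identifier, and they made up 3 of the 55384 genes in the deposited table. All 3 passed the filter on low counts, which left 18282 genes for testing. The study compared 4 libraries from ovariectomized females without estradiol (GDX) with 3 libraries from females treated with estradiol (E2). The labels do not say whether the E2 females were also ovariectomized, and the dose, the duration and the age of the mice are not given in the sources used here. Females of both groups were C57BL/6 mice given as Kiss1Cre+/Rpl22HA+/+, in which cells with Kiss1-driven Cre recombinase carry an HA tag on the ribosomal protein Rpl22. Such a tag stays on once Cre has acted, and it marks cells that expressed Kiss1 at any earlier time. Tagged ribosomes were pulled down from micropunches pooled from 4 brains per library, so spread between libraries is spread between pools.

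Vesicular glutamate transporters load glutamate into synaptic vesicles, using the proton gradient that the vesicular ATPase builds, and a neuron that lacks all of them is not expected to release glutamate from vesicles. VGLUT2 is the main form of the hypothalamus, VGLUT1 that of cortex and hippocampus, and VGLUT3 is known from neurons that also use another transmitter, such as serotonin, acetylcholine or GABA. AVPV kisspeptin neurons are mostly GABAergic, express tyrosine hydroxylase, and excite gonadotropin-releasing hormone neurons in the estrogen-driven surge.

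Libraries held 29207544 to 36213127 counts, so that 3 counts corresponded to 0.0818 to 0.101 CPM (counts per library scaled to a common size). The hormone labels were checked on Pgr, the progesterone receptor gene and a classic estrogen target, at 23.5 to 33.1 CPM in the GDX libraries and 109 to 132 CPM in those with E2. Kiss1 rose 6.24-fold (log2 fold change 2.64 ± 0.36, SE, edgeR adjusted p = 0.0158), and GDX replicate 4 held 113.5 CPM of it against 44.5 to 56.0 CPM in the other GDX libraries. Kiss1 no longer passed without GDX replicate 1 or E2 replicate 1 or 2 (log2 fold change 2.52 to 2.70, adjusted p 0.0574 to 0.0593) or with a score of glial and endothelial markers as a covariate (3.09, 0.148). The tagged gene Rpl22 did not pass the test (log2 fold change 0.17 ± 0.10, SE). Of the 7 genes that define AVPV kisspeptin neurons here, Kiss1, Th, Esr1, Pgr, Gad1, Gad2 and Slc32a1, each was above 20 CPM in every library. In edgeR 4 of them rose, Kiss1, Pgr, Th (1.86-fold) and Gad2 (1.35-fold), against 2.55% of all genes tested, and 3 did not pass. The 7 summed to 2239 to 2564 CPM in GDX and 3294 to 3446 CPM in E2, without overlap. Markers of astrocytes summed to 1121 to 3146 CPM in GDX and 848 to 981 CPM in E2, without overlap, so RNA of other cells was present in both groups. The marker Gfap held 1323 and 1765 CPM in GDX replicates 1 and 4, and 313 and 356 CPM in replicates 2 and 3. In E2 it held 163 to 203 CPM. The astrocyte markers Aldh1l1, S100b, Slc1a2 and Slc1a3 overlapped between the groups.

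With estradiol the VGLUT3 gene fell about 10-fold, while the VGLUT2 and VGLUT1 genes did not pass the test. Slc17a8 held 41.3, 49.3, 52.0 and 50.7 CPM in GDX replicates 1 to 4, and 4.72, 4.81 and 5.22 CPM in E2 replicates 1 to 3. The groups lay far apart, and the lowest GDX library was still 7.92-fold above the highest E2 library. Its mean was 48.3 ± 4.81 CPM in GDX (SD, n = 4), and with estradiol it was 4.92 ± 0.267 CPM (SD, n = 3), so GDX was 9.83-fold higher. The log2 fold change, E2 over GDX, was −3.30 ± 0.12 (SE), with a 95% interval from −3.57 to −3.02 and an adjusted p of 5.15e-08 (edgeR's quasi-likelihood test, Benjamini-Hochberg over all genes tested). So 1 of the 3 transporters changed, and of all genes tested 3.88% changed, 2.55% rising and 1.33% falling, while 16.5% had groups that did not overlap. Slc17a8 had the 4th smallest p of all genes tested and the 6th largest fall among the 243 genes that fell. Rises made up 65.8% of all calls, against 52.2% under plain library sizes, an alternative picked with the data in view that moved the median of all genes by less than 0.1 on the log2 scale. A lower level in such bulk pulldowns can come from fewer cells that carry the RNA, from less RNA per cell or from less of it on ribosomes. These cannot be told apart.

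**Figure D1:**
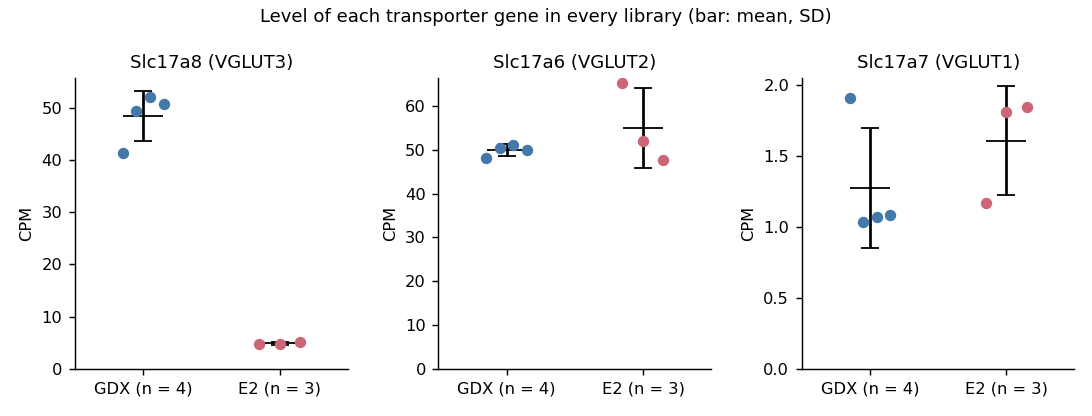
Level of Slc17a8, Slc17a6 and Slc17a7 in CPM on linear axes from 0, with a separate axis for each gene; points are libraries (4 GDX, 3 E2) and the bars give the mean and SD. Slc17a8 stood at 41.3 to 52.0 CPM in GDX and 4.72 to 5.22 CPM in E2, while the groups overlapped for Slc17a6 and Slc17a7.

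Slc17a8 (ENSMUSG00000019935) lies on chromosome 10, from 89574020 to 89621253 on the minus strand of GRCm38, and shares no exon base with another annotated gene. Its 2 annotated transcripts start at 89621253 and at 89599815, within the gene, and the deposited counts per gene do not separate them. The bases before both starts are shown because this is the member whose level changed with the hormone. The upstream start of the VGLUT2 gene is shown beside them. All are from RefSeq on GRCm38.p6, 5′ to 3′ on the strand of the gene, and capitals mark matches to the motifs named below.
Slc17a8 upstream start, chr10:89621254-89621499, minus strand: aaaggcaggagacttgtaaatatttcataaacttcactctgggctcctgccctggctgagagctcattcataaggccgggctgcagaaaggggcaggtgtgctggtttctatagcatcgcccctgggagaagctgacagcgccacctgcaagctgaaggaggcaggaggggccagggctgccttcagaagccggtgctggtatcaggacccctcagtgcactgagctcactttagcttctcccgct
Slc17a8 internal start, chr10:89599816-89600065, minus strand: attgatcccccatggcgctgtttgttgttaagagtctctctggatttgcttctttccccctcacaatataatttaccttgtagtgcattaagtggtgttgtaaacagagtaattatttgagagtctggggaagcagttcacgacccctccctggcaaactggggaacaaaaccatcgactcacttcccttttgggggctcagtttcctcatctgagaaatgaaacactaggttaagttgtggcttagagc
Slc17a6 upstream start, chr7:51621580-51621829, plus strand: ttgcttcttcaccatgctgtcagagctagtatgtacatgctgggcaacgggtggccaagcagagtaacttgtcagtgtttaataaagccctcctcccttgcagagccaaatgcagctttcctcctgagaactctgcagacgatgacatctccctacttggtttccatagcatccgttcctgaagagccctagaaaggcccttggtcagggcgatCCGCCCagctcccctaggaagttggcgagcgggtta
Both strands were searched for AGGTCA (a single arm of the estrogen response element), the full element (AGGTCA, any 3 bases, then TGACC), the AP-1 letters TGANTCA and the GC box GGGCGG, where the full element holds the single arm within it. Neither Slc17a8 window, of 246 and 250 bases, held any of the 4 motifs. The Slc17a6 window shown held 1 GC box, from 36 to 31 bases before its end. A further RefSeq window of Slc17a6, chr7:51624387-51624636, was searched, held no match and is not shown. Among 32851 RefSeq windows of 250 bases, 14% held AGGTCA, 0.0517% the full element, 6.75% the AP-1 letters and 32.7% the GC box. The Slc17a6 window shown ends at the RefSeq start, 51621829 being its last base, and the GENCODE start lies further downstream, at 51622006. No match says only that these letters are not in these windows.

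The nearest protein-coding genes on either side, taken by position alone, served as local context. Scyl2, 17468 bp beyond the upstream start, averaged 55.8 CPM in GDX and 57.5 CPM in E2. Actr6, 90718 bp away, averaged 22.1 and 20.0 CPM. On the other side Nr1h4, 40435 bp away, averaged 0.559 and 0.205 CPM, and Gas2l3 0.964 and 0.782 CPM. None of these 4 neighbours passed the test in edgeR, with adjusted p values from 0.308 to 0.878.

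Slc17a6 (ENSMUSG00000030500, chromosome 7, 51622006 to 51671119, plus strand), the usual transporter gene of hypothalamic glutamate neurons, held 48.0, 50.5, 51.2 and 50.02 CPM in the GDX libraries and 65.3, 52.0 and 47.7 CPM in the E2 libraries. The groups overlapped, and E2 replicate 1 stood above all others. The mean was 49.9 ± 1.35 CPM (SD, n = 4) in GDX and 55.0 ± 9.15 CPM (SD, n = 3) in E2. The log2 fold change of 0.14 ± 0.11 (SE) did not pass (adjusted p = 0.58, edgeR), and its 95% interval ran from −0.09 to 0.37, that is from 0.937-fold to 1.297-fold. Without E2 replicate 1 the log2 fold change was −0.00089, and with the marker score as a covariate 0.01. The part of untagged cells in the Slc17a6 level, and so in the shares, ratios and sums below, was not tested.

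Slc17a7 (ENSMUSG00000070570, chromosome 7, 45163949 to 45176142, plus strand), the transporter gene of cortical glutamate neurons, was the lowest of the 3, with 31 to 70 counts in each library. It held 1.91, 1.04, 1.07 and 1.09 CPM in GDX and 1.17, 1.81 and 1.85 CPM in E2. GDX replicate 1 stood above the other GDX libraries, at the level of the 2 higher E2 libraries. The log2 fold change of 0.33 ± 0.39 (SE) did not pass (adjusted p = 0.752, edgeR), and the 95% interval, from −0.51 to 1.18, leaves both a fall to 0.701-fold and a rise to 2.26-fold within the error at this depth. Without GDX replicate 1 it was 0.59 and with the same covariate 0.89, and neither passed. Of 6 markers of pallial neurons, which carry VGLUT1 in cortex and hippocampus, 3 passed the low-count filter. The 6 summed to 6.26 to 9.43 CPM in GDX and 6.97 to 9.18 CPM in E2. Neurod6 was at 0 in 2 libraries and Neurod2 in another 2. The part of such cells in the Slc17a7 level was not tested.

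**Figure D2:**
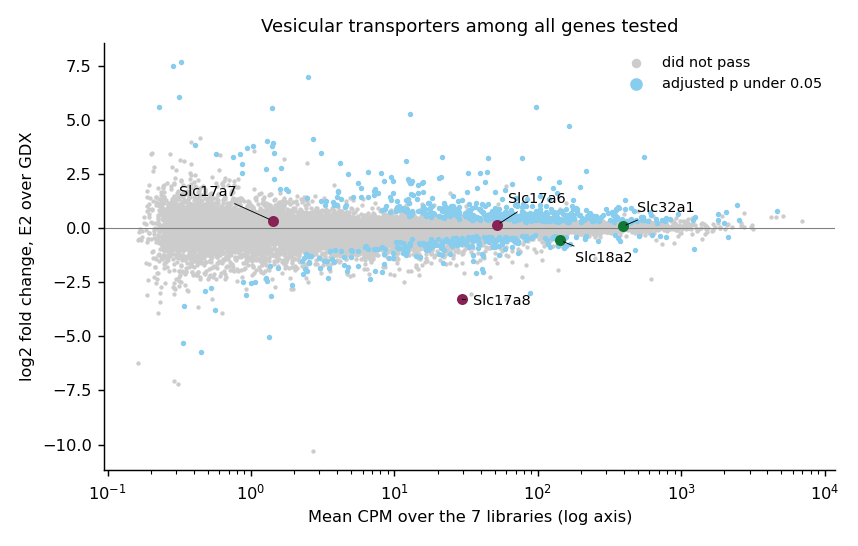
Log2 fold change, E2 over GDX, against the mean CPM over 7 libraries (log axis) for the 18282 genes tested; blue points passed an adjusted p under 0.05, purple points are the 3 glutamate transporters and green points the GABA (Slc32a1) and monoamine (Slc18a2) transporters. Slc17a8 lies at −3.30, Slc17a6 and Slc17a7 at 0.14 and 0.33.

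The 3 genes are related in sequence, so the stretches that could let a read fit more than 1 of them were measured on the GENCODE transcripts. The longest run shared by Slc17a8 and Slc17a6 was 25 bases, within the coding part of both, and it is shown because it is the only run of 25 bases that these genes have in common.
Slc17a8 and Slc17a6: tcatgagcggcctcggcttctgcat
Slc17a6 and Slc17a7: aacctgggcgtggccatcgtg
The second run, of 21 bases, is the longest shared by Slc17a6 and Slc17a7, also within the coding parts, and the longest between Slc17a8 and Slc17a7 was 20 bases. No run of 50 bases was shared by any pair.

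Levels of different genes were compared as CPM per kb of exon, since longer transcripts collect more counts. In GDX, Slc17a8 stood at 10.2 ± 1.02 CPM per kb and Slc17a6 at 9.25 ± 0.250 CPM per kb (SD, n = 4). Their ranges overlapped, from 8.75 to 11.02 and from 8.89 to 9.47 CPM per kb, so neither was above the other beyond its spread, and with the longest transcript as length their order turned, to 10.8 and 12.1 CPM per kb. Slc17a7 came last at 0.237 ± 0.0782 CPM per kb. In E2, Slc17a6 led at 10.2 ± 1.70 CPM per kb (SD, n = 3), Slc17a8 followed at 1.04 ± 0.0565 and Slc17a7 at 0.299 ± 0.0708 CPM per kb. The ranges of the 3 genes did not overlap in E2.

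The make-up of the glutamate transporter message therefore differed between the groups. Slc17a8 held 48.6%, 52.3%, 53.3% and 53.1% of the summed CPM per kb in the GDX libraries and 7.51%, 9.28% and 10.7% in the E2 libraries. No GDX library came near an E2 library. The share went from 51.8 ± 2.18% (SD, n = 4) to 9.18 ± 1.62% (SD, n = 3), with p = 0.0286 in an exact permutation test (two-sided, 35 arrangements), the lowest that 4 against 3 libraries allow, and 0.0343 after Benjamini-Hochberg adjustment over 6 such measures. The share of Slc17a6 went from 46.9 ± 1.70% to 88.1 ± 2.51% (the same exact p and adjusted value, n as above), although its own level did not pass the test, since the 3 shares add to a whole. Slc17a7 held 0.960% to 1.97% in GDX and 1.63% to 3.33% in E2, which overlapped (exact permutation p = 0.0857). As plain shares of counts, Slc17a8 held 45.3% to 49.9% in GDX and 6.63% to 9.52% in E2, and the 95% Wilson interval of a single library spanned at most 3.57 percentage points, which covers counting error only.

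**Figure D3:**
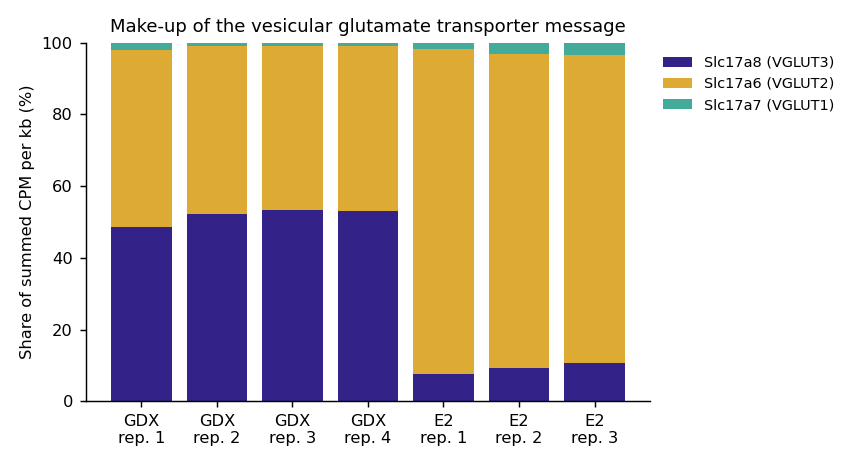
Share of each gene in the summed CPM per kb of the 3 transporters, stacked to 100%, for each of the 7 libraries. Slc17a8 fills 48.6% to 53.3% of each GDX bar and 7.51% to 10.7% of each E2 bar, and Slc17a7 stays at or under 3.33%.

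The ratio of Slc17a8 to Slc17a6 counts within a library does not depend on scaling between libraries. On the log2 scale, with 0.5 added to each count, it was −0.22, −0.03, 0.02 and 0.02 in GDX and −3.79, −3.43 and −3.19 in E2. Counts of both genes lay close together in GDX, least so in GDX replicate 1 (1515 for Slc17a8, 1761 for Slc17a6). They were far apart in every E2 library. The mean differed by −3.42 (exact permutation p = 0.0286, adjusted 0.0343, n = 4 and 3).

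The summed level of the 3 transporters was 18, 20.0, 20.7 and 20.2 CPM per kb in GDX and 13.3, 10.99 and 10.3 CPM per kb in E2. All E2 libraries lay below all GDX libraries. The sum was 0.585-fold in E2 (exact permutation p = 0.0286, adjusted 0.0343, n = 4 and 3). Of its 3 parts only Slc17a8 had a lower mean in E2, at 10.2 CPM per kb in GDX and 1.04 in E2. The shares, the ratios and this sum all hold that change, so they are not separate results. For scale, Slc32a1, the gene of the vesicular GABA transporter, stood at 137 ± 5.27 CPM per kb in GDX and 144 ± 15.1 CPM per kb in E2, and did not pass the test (log2 fold change 0.07 ± 0.08). The log2 ratio of the summed VGLUT level to Slc32a1, both per kb, went from −2.79 ± 0.0710 (SD, n = 4) to −3.64 ± 0.334 (SD, n = 3), with the same exact permutation p of 0.0286. The glutamate transporter message was thus the smaller in every library, and all 3 E2 ratios to the GABA transporter message lay below the 4 GDX ratios.

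Across processing choices and left-out libraries the log2 fold change of Slc17a8 ranged from −3.42 to −3.24, and its adjusted p was at most 4.14e-06 in these 19 alternatives. Without GDX replicate 4, the library with the high Kiss1 level, it was −3.27 (edgeR adjusted p = 1.44e-09).

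**Figure D4:**
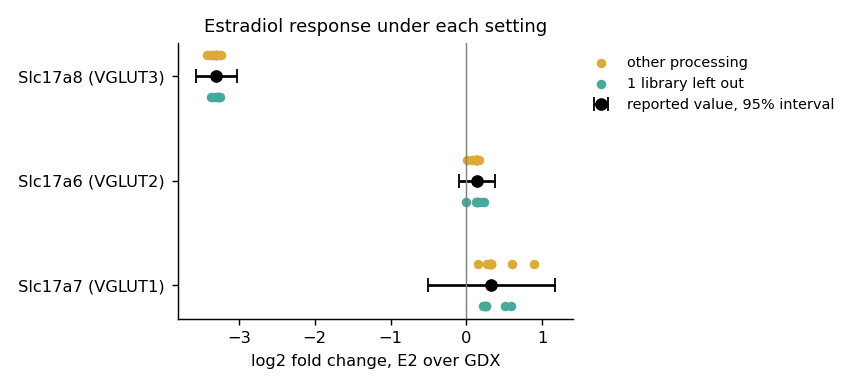
Log2 fold change, E2 over GDX, of each transporter; black points and bars give the reported value with its 95% interval, green points the fits with 1 library left out and yellow points the other processing alternatives. Slc17a8 keeps to −3.42 to −3.24, and Slc17a7 spreads from 0.16 to 0.89.

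Markers of other cell types moved between the groups, and their values stand here beside the fall of Slc17a8. All 25 markers of astrocytes, oligodendrocytes, microglia and endothelial cells were tested. Of these, 21 were lower in E2, while the median log2 fold change of all genes tested was 0.00403. None passed edgeR, against 3.88% of all genes tested. DESeq2 called 3 of them and 1391 of the 18282 genes tested, and limma-voom called 3 and 1082. Before adjustment 8 stood under 0.05, for which no share over all genes is given here. Oligodendrocyte markers summed to 2758 to 5728 CPM in GDX and 2557 to 3074 CPM in E2, endothelial markers to 175 to 446 and 100.5 to 169 CPM, and microglial markers to 59.6 to 77.7 and 62.8 to 84.9 CPM. Their mean log2 CPM was 5.64 to 6.41 in GDX and 5.34 to 5.595 in E2, without overlap. With this score as a covariate the log2 fold change of Slc17a8 was −3.42 (edgeR adjusted p = 1.38e-07). Because the score itself separated the groups, calls kept or lost with it cannot tell marker RNA and treatment apart, for any gene here. Ependymal markers summed to 55.6 to 108 CPM in GDX and 32.7 to 58.0 CPM in E2. Among these 5 genes 1, Rarres2, fell, against 1.33% of all genes tested.

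Serotonergic and cholinergic neurons are among the known carriers of VGLUT3, and their markers were measured too. The serotonergic markers Tph2, Slc6a4 and Fev summed to 0 to 0.503 CPM in GDX and 1.06 to 2.004 CPM in E2. The sum was carried mostly by Tph2, the tryptophan hydroxylase gene of serotonin synthesis, with a mean of 0.173 CPM in GDX and 1.16 CPM in E2. Fev was at 0 in all GDX libraries and in E2 replicate 3. The cholinergic markers Chat, Slc18a3 and Slc5a7 summed to 6.79 to 19.4 CPM in GDX and 10.2 to 18.6 CPM in E2, which overlapped. The part of serotonergic and cholinergic cells in the Slc17a8 level was not tested. Of the 12 pallial, serotonergic and cholinergic markers 7 were tested and none passed edgeR, against 3.88% of all genes tested. Before adjustment 1 stood under 0.05, again with no share over all genes given here. DESeq2 called 1, Tph2, and limma-voom also called 1, where they called 1391 and 1082 of the 18282 genes tested. The arcuate kisspeptin markers Tac2, Pdyn and Nr5a2 summed to 165 to 244 CPM in GDX and 118 to 155 CPM in E2. Pdyn, the gene of prodynorphin, fell, from a mean of 174 CPM in GDX to 109 CPM in E2, where 1.33% of all genes tested fell. Tac2 averaged 32.6 and 32.4 CPM and Nr5a2 0.546 and 0.847 CPM, and neither passed. The part of arcuate cells in the fall of Slc17a8 was not tested. Of the 4 genes listed for preoptic glutamate neurons, Nos1, the neuronal nitric oxide synthase gene, rose (log2 fold change 0.38), against 2.55% of all genes tested. Slc17a6, Adcyap1 and Bdnf did not pass. The 4, which include Slc17a6 itself, summed to 200 to 210 CPM in GDX and 243 to 273 CPM in E2, without overlap.

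The other genes of glutamate supply and vesicle filling moved much less than Slc17a8. Of 13 other vesicular transporter genes 9 were tested, 1 fell and 8 did not pass, with a median log2 fold change of −0.04 against 0.00403 over all genes tested. The 1 that fell was Slc18a2, the vesicular monoamine transporter gene, at 167 ± 25.4 CPM in GDX and 112 ± 15.3 CPM in E2 (log2 fold change −0.57 ± 0.13, edgeR adjusted p = 0.0398). Slc18a2 no longer passed when GDX replicate 2, 3 or 4, or E2 replicate 2 or 3, was left out (log2 fold change −0.57 to −0.48, adjusted p from 0.0568 to 0.156) and with limma-voom (−0.46, 0.0656). The lysosomal sialic acid transporter gene Slc17a5 averaged 16.7 and 16.01 CPM, and the nucleotide transporter gene Slc17a9 0.322 and 0.263 CPM. Slc17a1, Slc17a2 and Slc17a4 had no counts in any library, which allows a level up to 0.101 CPM per library, and Slc17a3 reached 0.165 CPM at most.

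Among 15 genes of glutamate synthesis and metabolism, all tested, 1 rose, none fell and 14 did not pass (median log2 fold change 0.06). The 1 that rose was Got1, the cytosolic aspartate aminotransferase gene, from 313 ± 15.1 to 424 ± 20.5 CPM (log2 fold change 0.44 ± 0.07, edgeR adjusted p = 0.00292), a call lost with the marker score as a covariate (0.38 ± 0.10, adjusted p = 0.0971). The glutaminase gene Gls2 had a log2 fold change of 0.03 ± 0.11, and Glud1, the glutamate dehydrogenase gene, −0.10 ± 0.09.

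Of 13 plasma membrane carriers of glutamate and glutamine 12 were tested, 1 fell and 11 did not pass (median log2 fold change −0.21). The 1 that fell was Slc38a5, a glutamine carrier gene, from 5.02 ± 1.95 to 1.88 ± 0.465 CPM (log2 fold change −1.42 ± 0.35, edgeR adjusted p = 0.0438). Leaving out any library but GDX replicate 3 lost that call (log2 fold change −1.62 to −1.14, adjusted p from 0.063 to 0.205), as did leaving out GDX replicates 1 and 4 together (−1.06, 0.167), the covariate (−0.84, 0.614) and dispersions that were not robust (−1.42, 0.0539). The neuronal glutamate carrier gene Slc1a1 had a log2 fold change of 0.04 ± 0.08, and the astrocytic Slc1a2 and Slc1a3 −0.35 ± 0.18 and −0.44 ± 0.19. Both astrocytic genes are also on the astrocyte marker list, whose sum was lower in E2.

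Of 25 genes of the vesicular proton ATPase and its partner chloride exchanger 20 were tested, 1 rose, none fell and 19 did not pass (median log2 fold change 0.03). The 1 that rose was Atp6ap1, an accessory subunit gene, from 443 ± 19.9 to 560 ± 17.1 CPM (log2 fold change 0.34 ± 0.06, edgeR adjusted p = 0.0105). Atp6ap1 no longer passed when E2 replicate 1 (0.33, adjusted p = 0.077) or 2 (0.32, 0.0654) was left out, or with the covariate (0.28, 0.24). The membrane subunit genes Atp6v0a1, Atp6v0a2 and Atp6v0b had log2 fold changes of 0.15 ± 0.06, −0.09 ± 0.09 and 0.05 ± 0.09 and did not pass. Each of the 4 lists thus held 1 changed gene, against 3.88% changed among all genes tested.

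**Figure D5:**
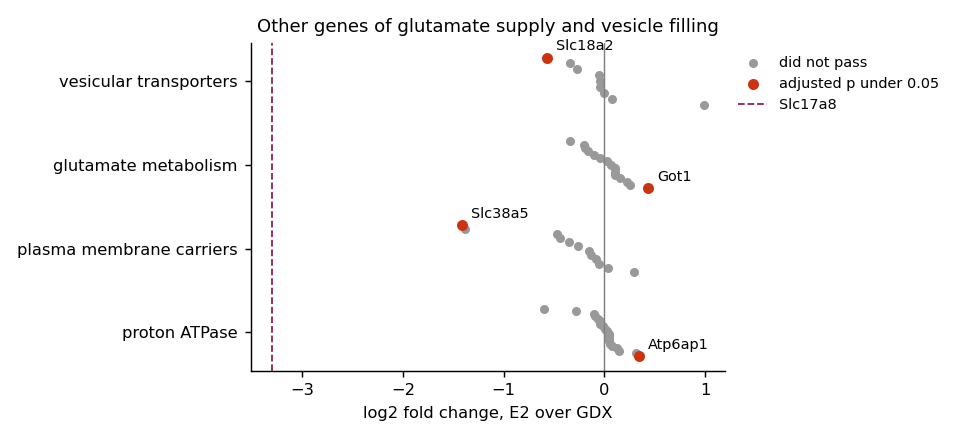
Log2 fold change, E2 over GDX, of every tested gene on the 4 lists; red points passed an adjusted p under 0.05 and are named, grey points did not pass, and the dashed line marks Slc17a8 at −3.30. The 4 named genes lie between −1.42 and 0.44.

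The genes with patterns most like each transporter over the 7 libraries were found by Pearson's correlation of log2 CPM among 11501 protein-coding genes whose mean reached 5 CPM, as a description of libraries that share their treatment. For Slc17a8 these were Mxra7 (r = 0.998), Npy2r (0.996), Enox2 (0.995), Ntsr1 (0.994) and Pgr15l (0.992). Npy2r, a neuropeptide Y receptor gene, fell from 141 to 17.6 CPM, and Ntsr1, a neurotensin receptor gene, from 47.1 to 20.0 CPM, while Enox2 averaged 20.2 and 17.2 CPM and did not pass. For Slc17a6 they were Zfp2 (0.963), Cpsf6 (0.949), Thrb (0.942), Zfp825 (0.938) and Zfp667 (0.936). For Slc17a7 they included Tufm (0.984), Tab1 (0.946), Masp1 (0.943) and Pcsk6 (0.924). None of these 9 genes passed the test in edgeR. With 11501 genes searched over 7 libraries, correlations this high can also arise by chance, which was not tested.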

How the data were processed

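RNA bound to HA-tagged ribosomes was sequenced from 7 pooled AVPV samples, from unstranded polyA libraries per the labels' protocols. The authors deposited expected counts per gene, of which 33.1% of the non-zero values were not whole. Trimmomatic 0.38, STAR 2.6.0a, RSEM 1.3.0 and mm10 are named in the submitters' processing notes without roles or order; the gene annotation is not given in the sources used here. Of the 55384 identifiers, 55203 were found in GENCODE vM21 (GRCm38). Without strand, reads of antisense genes cannot be told apart.

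Expected counts were rounded and tested with edgeR 4.0.16 in R 4.3.3 by the quasi-likelihood test (TMM, filterByExpr with a minimum count of 10 and total of 15, robust dispersions); an adjusted p under 0.05 was called changed. CPM use TMM library sizes. Per-length levels divide CPM by the union of exons. Shares and ratios were compared by exact permutation with scipy 1.17.1, two-sided on the absolute difference. Alternatives were DESeq2 1.42.0, limma 3.58.1 (voom), other scalings and filters, a replicate block, a non-neuronal score (prior count 2) as covariate, an adjusted p under 0.01, other lengths and left-out libraries. Leaving out GDX replicates 1 and 4 together, and library sizes alone for gene tests, were added after the data were seen. The edgeR step was tested on simulated data. Where nothing says otherwise, p-values measure spread between pools.

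The members and lists were chosen with earlier results of these data known. Named genes are the 3 transporters, Kiss1, Pgr and Rpl22, up to 6 changed and the first 3 other tested genes of each of 4 lists, and the 5 most alike genes per transporter; others are markers or neighbours. For 2 genes that the rule named, values are not reported here.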

Additional observations from a re-analysis of the deposited data

Results flagged for a closer look

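Within the 4 GDX libraries, 3 of 41 measures examined had a single library far from the rest by Dixon's criterion, where chance flags about 1 in 20. Slc17a7 held 1.91 CPM in GDX replicate 1, against 1.04 to 1.09 CPM in the other 3, and its share of the summed per-length level there was 1.97%, against 0.960% to 0.9997%. Kiss1 held 113.5 CPM in GDX replicate 4, against 44.5 to 56.0 CPM.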

How the results depend on the processing

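Slc17a8 kept its direction and its call in all 19 alternatives, and Slc17a7 stayed on the same side in all 18 that gave a value (the filter of a mean of at least 5 CPM removed it). Replicate numbers did not pair the pools (correlations of same-numbered deviations from group means −0.0205, −0.038 and −0.0555). With the replicate block, in which GDX replicate 4 has no partner, log2 fold changes were −3.27 for Slc17a8, 0.13 for Slc17a6 and 0.30 for Slc17a7, and 612 genes changed in place of 710. The block also ended the calls of Slc18a2 (−0.51, adjusted p = 0.181), Slc38a5 (−1.13, 0.101) and Atp6ap1 (0.35, 0.0516). Exact tests with a library left out cannot go below 0.1 (GDX) or 0.0667 (E2), so their loss of the threshold shows nothing about stability. Their differences, E2 minus GDX, ranged from −43.7 to −41.8 points for the Slc17a8 share, 39.8 to 42.3 points for the Slc17a6 share, −3.56 to −3.26 for the log2 ratio of the 2 genes, −9.09 to −7.58 CPM per kb for the sum and −1.02 to −0.69 for the log2 ratio to Slc32a1. Over all 10 alternatives, which include other lengths, the Slc17a8 share differed by −43.7 to −38.9 points. The Slc17a6 share differed by 37.1 to 42.3 points. Changed genes numbered 1609 without a low-count filter, 1391 with DESeq2, 1082 with limma-voom, 318 with the non-neuronal covariate, 360 at an adjusted p under 0.01 and 364 to 974 with a library left out (lowest without E2 replicate 1). The 1 call of each list became 2 (metabolism), 2 (plasma membrane carriers) and 3 (proton ATPase) without a filter, and 2 for the ATPase with DESeq2 or limma-voom. It became 0 for vesicular transporters with limma-voom, the block or an adjusted p under 0.01, 0 for carriers with the 5 CPM filter, dispersions not robust, the block, the covariate, the stricter p or without GDX replicates 1 and 4, 0 for the ATPase with the block, the covariate or the stricter p, and 0 for metabolism with the covariate. With 1 library left out the counts were 0 to 1 for vesicular transporters and carriers, 1 for metabolism and 0 to 2 for the ATPase.

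Some log2 fold changes that did not pass changed sign. With the covariate they were Slc17a5 0.0342, Gls2 −0.0907, Glud1 0.0937, Slc1a1 −0.0129, Slc1a2 0.18, Slc1a3 0.0272, Atp6v0a2 0.0552, Atp6v0b −0.12, Zfp2 −0.00225 and Zfp825 −0.14. With library sizes alone they were Gls2 −0.0315, Slc1a1 −0.0246, Atp6v0b −0.00695 and Zfp667 −0.00779. With the block they were Gls2 −0.0311 and Atp6v0b −0.0107. Without GDX replicates 1 and 4 they were Slc17a5 0.0343, Gls2 −0.081, Glud1 0.0353, Atp6v0a2 0.0263 and Atp6v0b −0.061. With 1 library left out they ranged from −0.00089 to 0.23 for Slc17a6 (turned without E2 replicate 1), −0.12 to 0.0354 for Slc17a5 (turned without E2 replicate 2), −1.68 to 0.25 for Slc17a9 (turned without E2 replicate 1), −0.015 to 0.14 for Slc32a1 (turned without E2 replicate 3), −0.0312 to 0.0836 for Gls2 (turned without GDX replicate 4 or E2 replicate 3), −0.00549 to 0.0634 for Slc1a1 (turned without GDX replicate 1), −0.0137 to 0.13 for Atp6v0b (turned without GDX replicate 4), −0.0322 to 0.16 for Zfp2 (turned without E2 replicate 1), −0.027 to 0.21 for Thrb (turned without E2 replicate 1), −0.00771 to 0.37 for Zfp825 (turned without E2 replicate 1), −0.0297 to 0.10 for Zfp667 (turned without E2 replicate 1). The cause of these changes was not tested.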
